A study of Homo sapiens with 12 samples.

Results

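PTPN14-1 is the name used here for one of the pair of small interfering RNAs that the study aimed at PTPN14, and its effect was measured against a non-targeting control siRNA in 3 human kidney cell lines. The comparison rests on 6 of the 12 polyA RNA-seq libraries of the series: 3 PTPN14-1 libraries and 3 control libraries, 1 of each from A704, HK2 and CAKI-1, taken by the siRNA number in the sample titles and paired by line. The remaining 6 libraries hold the second PTPN14 siRNA (PTPN14-2) and a LATS siRNA, again 1 per line. The titles and the sample descriptions number the PTPN14 siRNAs in opposite ways, so PTPN14-1 here is the siRNA that the descriptions call the second. Every group, controls included, received siRNA at 25 nM by lipid transfection, with RNA collected after 48 h. A704 and CAKI-1 are lines established from renal cancers, and HK2 is an immortalised line from the proximal tubule of a normal kidney. The labels do not state whether LATS1, LATS2 or both were targeted, and they do not state that libraries came from repeated cultures. Each siRNA therefore has 1 library per line. A p-value reflects how the siRNA effects varied from line to line over all 12 libraries, which is also the variation between single libraries.

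PTPN14 is a non-receptor tyrosine phosphatase with an amino-terminal FERM domain and proline-rich motifs that bind the WW domains of YAP1. It acts in the Hippo pathway, in which the MST and LATS kinases, with scaffolds such as the WWC (KIBRA) and angiomotin proteins, hold the coactivators YAP1 and WWTR1 (TAZ) out of the nucleus. When the coactivators enter the nucleus they join TEAD transcription factors and raise genes such as CTGF, CYR61, AMOTL2 and LATS2, several of which feed back on the pathway. The study's title sets the siRNA work beside a rare tumour, the mucinous tubular and spindle cell type of renal carcinoma.

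Depth was comparable across the libraries, at 17.0 M to 23.3 M reads as estimated from the steps in the low values, and 10862 to 11082 entries per library lay above an FPKM of 1 (fragments scaled for transcript length and library size). Of 10 kidney epithelial markers, 7 to 9 lay above FPKM 1 in each library, with KRT8, KRT18, PAX8 and CDH2 present in all 12. In HK2 and CAKI-1, PAX2 was at or near 0 and CDH1 did not exceed 0.17. EPCAM did not exceed 0.51 in A704 and CAKI-1. All 9 endothelial markers stayed under FPKM 1, the highest being ERG at 0.52, and of 10 immune markers the pan-leukocyte gene PTPRC did not exceed 0.04. Some markers of other cell types were present: the macrophage marker CD68 stood at FPKM 17.7 to 198 and ITGAM reached 2.02, both highest in A704. The fibroblast markers LUM (46.6 to 74.4) and DCN (5.67 to 8.20) were present in HK2 alone, RGS5 reached 7.34, PDGFRB 1.72 and COL1A1 1.49, and the podocyte markers SYNPO, PTPRO and PODXL reached 17.8, 11.6 and 4.60 in A704. SYNPO and PTPRO were highest in the A704 PTPN14-1 library, where 8 podocyte markers summed to FPKM 33.6 beside 23.0 in the control, and the part of these markers in the results was not tested. In these bulk samples, fewer cells of a type and less RNA per cell cannot be told apart.

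PTPN14 itself was measured first, because it checks the PTPN14-1 labels against the control labels. PTPN14 also fell with PTPN14-2, as given below, so its fall cannot settle which siRNA each number stands for. The gene (ENSG00000152104, chromosome 1, 214348696 to 214552449, minus strand, GRCh38) stood at FPKM 19.1 for A704, 51.8 for HK2 and 18.5 for CAKI-1 with the control siRNA. With PTPN14-1 it stood at 4.09, 14.9 and 4.66 in the same order. Every PTPN14-1 library lay below every control library. On the log2(FPKM + 1) scale used for all changes below, PTPN14 fell by 1.84 ± 0.11 over 3 line pairs (limma, adjusted p = 2.25e-06). Here and below, ± gives the moderated standard error from the limma fit of all 12 libraries. HK2 had the most PTPN14 with either siRNA, and its knockdown level was just under the control levels of the other lines.

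**Figure D1:**
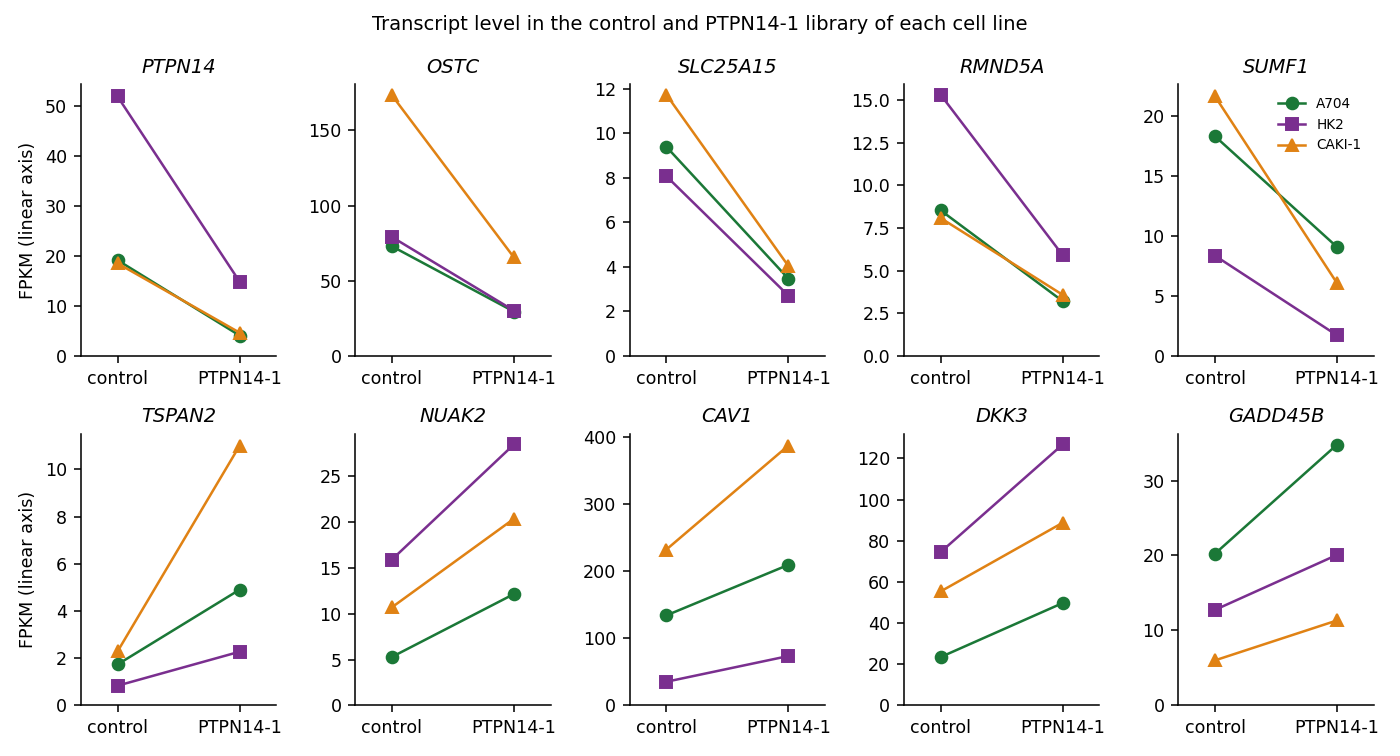
Transcript level in FPKM (linear axes from 0) in the control and the PTPN14-1 library of each cell line, 1 point per library and 1 line per cell line, for 5 genes that fell (top) and 5 that rose (bottom). Every line runs in the direction of its gene's change, from control levels that differ between the cell lines.

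Beyond the target, the changes were many and small. Of 12276 genes tested, 720 passed an adjusted p of 0.05 in limma, which is 5.87% of all tested. Of these, 294 were higher (2.39% of those tested) and 426 lower (3.47%) with PTPN14-1. Each of the 720 moved in 1 direction in all 3 lines, as did 41.6% of all genes tested. The median change was 0.40 among the higher genes and -0.44 among the lower ones, and the median over all genes tested was 0.00. A change of more than 1 on the log2 scale was reached by TSPAN2 alone among the higher genes and by 10 of the lower genes. Groups rarely separated in level, since the lines differ: all PTPN14-1 libraries lay outside the range of the controls for 23 of the 294 higher and 80 of the 426 lower genes. The share over all genes tested is not given here, so nothing is read from these 2 counts beyond the overlap of levels.

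These counts lean on few libraries. Leaving out the control library of A704, HK2 or CAKI-1 left 332, 200 or 268 genes past the threshold, leaving out the HK2 PTPN14-1 library left 241, and a fit of the 6 libraries alone called 103. Of the 120 called genes selected for naming, 51 missed the threshold with no filter on low values and 84 in the fit of the 6 libraries. Of the same 120, 41 passed in all 12 fits that each left out 1 library, among them PTPN14, OSTC, SUMF1, SLC25A15, RMND5A, TSPAN2, NUAK2, CAV1, DKK3, CRIM1, AMOTL2, AXL, CYR61, AJUBA, DUT and E2F8. For genes that were lost in some of these 12 fits, the loss is stated below. It is given as a count of 12, by the library left out, or for several genes together. The share of each list that passed is read against the 5.87% of all genes. Counts at an unadjusted p under 0.05 (limma) are read against 2801 of all 12276 genes. All lists and their members were chosen with earlier results of these data known, which limits what these shares can show.

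**Figure D2:**
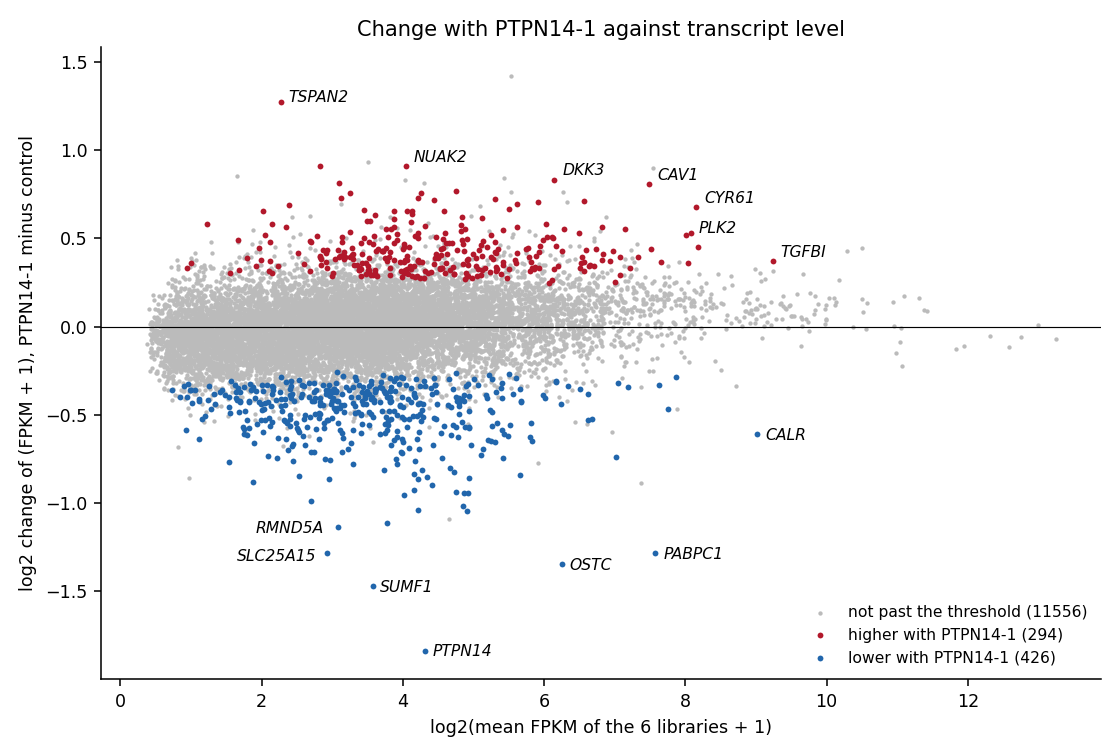
Change with PTPN14-1 (log2 of FPKM + 1, PTPN14-1 minus control, from the limma fit) against transcript level (log2 of the mean FPKM of the 6 libraries + 1) for 12276 genes, with the 294 higher genes in red, the 426 lower genes in blue and the others in grey. Most coloured points lie within 1 log2 unit of the line at 0, and the largest falls (PTPN14, SUMF1, OSTC, PABPC1, SLC25A15) exceed the largest rise (TSPAN2).

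The known targets of YAP1 and WWTR1 were examined next, as the readout closest to the pathway. Of 36 such genes 33 were tested, and 10 of these rose: NUAK2, AMOTL2, CRIM1, AXL, CYR61, LATS2, AJUBA, MYOF, CTGF and CCDC80. The 1 that fell was PTPN14, the gene silenced, which is also on the list. These 11, PTPN14 included, are 33.3% of the list, against 5.87% of all genes tested. The rises alone are 10 of 33, against 2.39% of all genes tested. Lists and members were chosen with earlier results of these data known. In the fit of the 6 compared libraries alone, 5 members rose. MYOF, a membrane repair protein, passed in 8 of 12 and CCDC80, a secreted matrix protein, in 4 of 12 fits with a library left out. The median change over the list was 0.30, with medians of 0.21 for A704, 0.38 for HK2 and 0.25 for CAKI-1. Between 6 and 12 members rose when 1 library was left out, the 6 being without the CAKI-1 control, and the median stayed between 0.25 and 0.35. With a whole line left out, 8 (without A704), 1 (without HK2) and 3 (without CAKI-1) members rose. For PTPN14-2 against the same controls, the median change over the same 33 genes was 0.03.

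TEAD factors bind DNA at a core of GGAATG. Start regions of 3 targets that rose are shown so that the letters can be seen in place, and they were chosen because they hold them. The 250 bases before a RefSeq transcription start (build GRCh38.p14) are given 5′ to 3′ on the strand of the gene, with capitals at each GGAATG or, for the other strand, CATTCC. The regions are chr6:131951373-131951622, minus strand for CTGF (RefSeq symbol CCN2), chr1:205321746-205321995, minus strand for NUAK2 and chr3:134374448-134374697, minus strand for AMOTL2, at the second of its listed starts.
CTGF promoter: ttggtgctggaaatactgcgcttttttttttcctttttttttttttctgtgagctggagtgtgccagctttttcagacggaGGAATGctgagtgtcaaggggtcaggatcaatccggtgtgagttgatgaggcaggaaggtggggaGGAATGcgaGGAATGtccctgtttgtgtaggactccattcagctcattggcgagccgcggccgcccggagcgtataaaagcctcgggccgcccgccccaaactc
NUAK2 promoter: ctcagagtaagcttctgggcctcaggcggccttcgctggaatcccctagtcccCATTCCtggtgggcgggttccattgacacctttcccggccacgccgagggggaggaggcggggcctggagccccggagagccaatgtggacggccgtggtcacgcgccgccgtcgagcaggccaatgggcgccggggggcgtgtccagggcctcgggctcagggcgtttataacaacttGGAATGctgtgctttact
AMOTL2 promoter: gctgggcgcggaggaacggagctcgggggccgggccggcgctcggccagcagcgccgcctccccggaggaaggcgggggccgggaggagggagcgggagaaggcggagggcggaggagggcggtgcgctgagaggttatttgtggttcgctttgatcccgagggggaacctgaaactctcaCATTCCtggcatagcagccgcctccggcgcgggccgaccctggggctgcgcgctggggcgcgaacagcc
CTGF holds 3 matches, at 169, 104 and 95 bases before the start, NUAK2 holds 2 and AMOTL2 holds 1. In windows from 250 bases before to 50 bases after a start, GGAATG or CATTCC occurred in 14.0% of all 35116 windows of the table and in 11.4% of the windows of the genes tested. The shares were 14.8% for the 294 higher genes, 11.4% for the 426 lower genes and 31.4% (11 of 35 windows) for the YAP/TAZ targets tested. Of the 10 targets that rose, 8 had a window and 6 had a match, in 54.5% of their 11 windows; CYR61 and CRIM1 were not among those with a window. MYOF, CCDC80 and the first listed starts of AMOTL2, AXL and AJUBA held no match. The match of LATS2 lay after the start, at an offset of 9 bases. A match describes these letters in this window and is not a measured binding site.

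Among the kinases, receptors and growth regulators on the list, NUAK2, a kinase related to AMPK, had the largest rise. Its FPKM was 5.28 for A704, 15.9 for HK2 and 10.7 for CAKI-1 in the controls and 12.2, 28.5 and 20.4 with PTPN14-1 (log2 change 0.91 ± 0.11, limma adjusted p = 0.000628). The rise was of similar size in each line (1.07, 0.80 and 0.87), while levels overlapped between groups because the lines differ. CRIM1, a membrane protein that binds bone morphogenetic proteins, stood at 113 for A704, 47.1 for HK2 and 59.0 for CAKI-1 and reached 147, 82.7 and 115 (change 0.71 ± 0.10, adjusted p = 0.00176). AXL, a receptor tyrosine kinase for the ligand GAS6, went from 58.5, 81.4 and 47.7 to 84.7, 110.1 and 78.7 (change 0.56 ± 0.08, adjusted p = 0.00246). Both rose in every line, CRIM1 least in A704, where its control level was highest.

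The secreted matricellular targets CYR61 and CTGF, textbook readouts of YAP activity, also rose. CYR61 had FPKM 107 for A704, 520.2 for HK2 and 63.0 for CAKI-1 with control siRNA and 152, 733 and 129.9 with PTPN14-1 (change 0.68 ± 0.12, adjusted p = 0.0067). CTGF was far less abundant, at 4.28, 16.4 and 18.7 and then 5.94, 20.9 and 29.4 (change 0.45 ± 0.10, adjusted p = 0.0246). For both genes the CAKI-1 pair showed the largest difference on the log2 scale. CYR61 passed in all 12 fits that left out a library, whereas CTGF missed the threshold without any of the 3 controls or without the CAKI-1 PTPN14-1 library (adjusted p up to 0.107). Among targets that did not pass, AREG, an EGF receptor ligand, had differences of -0.83 for A704, -1.10 for HK2 and -1.34 for CAKI-1 (adjusted p = 0.0536).

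The pathway's own components came next. Of 30 tested scaffolds, kinases and angiomotins, 7 rose and 1 fell (26.7%, against 5.87% of all genes), with a median of 0.14; AMOTL2, LATS2 and AJUBA are also on the target list and are counted in both. LATS2, a kinase that restrains YAP1, went from 11.9 for A704, 8.17 for HK2 and 7.21 for CAKI-1 to 14.9, 12.6 and 10.9 (change 0.47 ± 0.09, adjusted p = 0.00903), and missed the threshold without the HK2 PTPN14-1 or the CAKI-1 control library. Its relative LATS1 changed by 0.27 ± 0.11 (adjusted p = 0.158). AMOTL2, an angiomotin that binds YAP1, rose from 58.0, 49.4 and 29.2 to 82.7, 77.8 and 57.9 (change 0.70 ± 0.09, adjusted p = 0.000775). AJUBA, a LIM protein that inhibits the LATS kinases, rose from 17.1, 31.6 and 6.80 to 23.0, 42.7 and 16.1. Its log2 change was largest in CAKI-1, where it started lowest.

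FRMD6, a FERM protein upstream of the kinases, rose by 0.66 (adjusted p = 0.0333), most in HK2, where FPKM went from 13.7 to 33.4, and was lost without either HK2 library, the A704 control or the HK2 LATS library. WWC1 (KIBRA), a scaffold for the LATS kinases, rose by 0.36 and its relative WWC3 fell by 0.56 (adjusted p = 0.0364 and 0.00735). The WWC1 call held in 6 of 12 fits with a library left out (adjusted p up to 0.169), and not under quantile scaling. WWC3 stood at 7.64, 2.60 and 5.87 in the controls and 4.58, 1.80 and 3.25 with PTPN14-1, and passed in all 12 fits with a library left out. BTRC, a ubiquitin ligase subunit that acts on phosphorylated YAP1, and STK38L, a kinase of the LATS family, each rose by 0.35 and each passed in 7 of 12 fits. The number of members that rose was 2 without the HK2 PTPN14-1 library, 3 without the A704, HK2 or CAKI-1 control and 4 without the CAKI-1 PTPN14-1 library. It was 4 with no filter on low values, 1 with the 6 compared libraries alone. With the A704 line left out it was 3, with HK2 left out 0 and with CAKI-1 left out 1.

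Of the 7 YAP, TAZ and TEAD factors tested, WWTR1 alone passed, 14.3% of the list. YAP1 stood at 36.1 for A704, 28.0 for HK2 and 18.6 for CAKI-1 with control siRNA and 34.6, 27.9 and 21.3 with PTPN14-1 (change 0.04 ± 0.08, adjusted p = 0.799). WWTR1, its paralog, stood at 76.3, 144 and 60.4 and then 78.5, 228 and 88.6 (change 0.41 ± 0.11, adjusted p = 0.0394). The A704 pair was nearly level for WWTR1, the HK2 and CAKI-1 pairs were apart, and the call held in 4 of 12 fits with a library left out and was lost under quantile scaling, with no filter and with the 6 compared libraries alone. TEAD1 to TEAD4 changed by -0.14 to 0.14, and none passed.

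The largest falls after PTPN14 were in genes outside the Hippo pathway. OSTC, a subunit of the oligosaccharyltransferase that attaches N-glycans in the endoplasmic reticulum (chromosome 4, 108650584 to 108667820, plus strand), stood at 72.9 for A704, 79.1 for HK2 and 173 for CAKI-1 in the controls. With PTPN14-1 it stood at 29.5, 30.1 and 65.5 (change -1.34 ± 0.08, adjusted p = 2.25e-06). SUMF1 (chromosome 3, 3700814 to 4467281, minus strand), the enzyme that makes the active-site formylglycine of sulfatases, went from 18.3, 8.37 and 21.7 to 9.09, 1.72 and 6.07 (change -1.47 ± 0.15, adjusted p = 0.000254). OSTC separated fully between the groups and fell by a near-equal log2 amount in each line. On the same scale SUMF1 fell most in HK2 and least in A704, where the knockdown level was above the HK2 control.

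SLC25A15, the mitochondrial ornithine carrier of the urea cycle, had FPKM 9.39, 8.07 and 11.7 in the controls and 3.47, 2.71 and 4.04 with PTPN14-1 (change -1.28 ± 0.09, adjusted p = 9.69e-06). RMND5A, a subunit of the CTLH ubiquitin ligase, went from 8.53, 15.3 and 8.08 to 3.21, 5.90 and 3.58 (change -1.14 ± 0.09, adjusted p = 4e-05). In both genes all 3 PTPN14-1 libraries lay below all 3 controls. PABPC1, the main cytoplasmic poly(A)-binding protein, was the most abundant of the large falls, from 150.1, 337 and 334 to 99.5, 96.3 and 119.9 (change -1.29 ± 0.20, adjusted p = 0.00576). It fell much less in A704 (-0.59) than in HK2 (-1.80) or CAKI-1 (-1.47), and its reads can be shared with near-identical copies. FNDC3A, CIRBP, LPGAT1 and RNPS1 completed the falls beyond 1 log2 unit, at -1.11, -1.04, -1.04 and -1.02.

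CIRBP, a cold-inducible RNA-binding protein, went from 47.0, 36.3 and 33.1 to 26.9, 13.0 and 16.9. RNPS1, which binds spliced RNA with the exon junction complex, went from 47.5, 36.1 and 27.5 to 28.3, 15.2 and 12.1. DDX23, a helicase of the U5 snRNP, fell by 0.94 ± 0.13 (adjusted p = 0.00246), and LSM7, a subunit of the Sm-like ring that binds U6 and decaying mRNA, by 0.73 ± 0.15 (adjusted p = 0.0145, passing in 10 of 12 fits). The differences of LSM7 ran from -1.27 in HK2 to -0.22 in CAKI-1. The remaining falls of the top 15 were ADAMTS9, a secreted metalloprotease (-0.99), ZDHHC12, a palmitoyltransferase (-0.95), FAM32A (-0.94) and LIPA, the lysosomal acid lipase (-0.94); each passed in all 12 fits with a library left out.

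TSPAN2, a tetraspanin membrane organiser (chromosome 1, 115048011 to 115089500, minus strand), had the largest rise. Its FPKM was 1.73 for A704, 0.83 for HK2 and 2.28 for CAKI-1 with control siRNA and 4.90, 2.27 and 11.0 with PTPN14-1 (change 1.27 ± 0.15, adjusted p = 0.000775). The CAKI-1 knockdown library was far above all others, and the HK2 pair was the lowest. Among 19 tetraspanins tested, TSPAN2 was the only one that rose and TSPAN13 (-0.55) the only one that fell, the latter mostly in CAKI-1 (-1.07, against -0.06 in A704). TSPAN13 held in only 3 of 12 fits and was lost under quantile scaling.

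DKK3, a secreted glycoprotein of the dickkopf family, went from 23.4 for A704, 74.5 for HK2 and 55.4 for CAKI-1 to 49.7, 127 and 88.7 (change 0.83 ± 0.09, adjusted p = 0.000471). PDGFB, a platelet-derived growth factor chain, went from 0.42, 6.60 and 2.91 to 0.62, 17.5 and 8.37 (change 0.91 ± 0.18, adjusted p = 0.0141). PDGFB was under FPKM 1 in both A704 libraries, and it missed the threshold without either HK2 library or the CAKI-1 control. IL7R, a cytokine receptor chain, rose by 0.76 (adjusted p = 0.0445) with FPKM 4.15, 0.07 and 31.1 under PTPN14-1 and 1.26, 0.06 and 14.4 in the controls, HK2 thus being near 0 in both, and held in only 4 of 12 fits with a library left out.

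GADD45B, a stress-inducible partner of MAP3K4, went from 20.2, 12.7 and 6.00 to 34.8, 20.1 and 11.3 (change 0.73 ± 0.08, adjusted p = 0.00041). LACTB, a mitochondrial serine beta-lactamase-like protein, rose by 0.76 ± 0.09 and PRSS23, a secreted serine protease, by 0.77 ± 0.10; a 21.2% share of the exon bases of PRSS23 overlaps FZD4 on the opposite strand, and the strand setting of the counting is not given in the sources used here. IFFO2 rose by 0.73 with all PTPN14-1 libraries above all controls. GBP3, a guanylate-binding protein, and APOL2, an apolipoprotein L, both inducible by interferon, rose by 0.73 and 0.72, with the largest difference of each in A704 (0.95 and 1.05); APOL2 missed the threshold without the CAKI-1 control. The interferon response genes described below were also highest in the A704 PTPN14-1 library, and their part in these differences was not tested.

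Membrane and cytoskeletal genes were described by role. CAV1, the coat protein of caveolae, stood at 134 for A704, 35.0 for HK2 and 232 for CAKI-1 in the controls and 209, 73.3 and 387 with PTPN14-1 (change 0.81 ± 0.09, adjusted p = 0.000297). EHD2, an ATPase at the neck of caveolae, went the other way, from 29.9, 34.7 and 28.8 to 20.7, 24.6 and 22.3 (change -0.45 ± 0.09, adjusted p = 0.0138), with no overlap between groups. EHD2 held in 9 of 12 fits and was lost with the 6 compared libraries alone. They were the only ones of 7 caveola genes to pass (28.6%, of a short list); CAV2 had differences of 0.00 for A704, 1.02 for HK2 and 0.48 for CAKI-1 (adjusted p = 0.0767).

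Of 39 actin and focal adhesion genes 5 rose and 0 fell in limma, with a median of 0.21. Of the 39, 19 had an unadjusted p under 0.05, beside 2801 of all 12276 genes. The 5 are 12.8% of the list. Among the 5, CNN2 (calponin 2) rose by 0.46, ACTN1, an actin bundler, by 0.44, VCL (vinculin) by 0.39 and SRF, the transcription factor of many actin genes, by 0.33. Adjusted p-values of these 4 ran from 0.016 to 0.0357, and none of the 5 passed without the HK2 PTPN14-1 library or without the HK2 control. The number that rose was 0 in both of those fits (limma, as above), 1 without the CAKI-1 control, 3 without the A704 control and 10 without the CAKI-1 LATS library. It was also 0 with the 6 compared libraries alone and 2 with no filter. CFL1 (cofilin), which severs actin filaments and was among the 5 most abundant genes that rose, went from 185, 235 and 267 to 263, 287 and 325 and passed in 5 of 12 fits.

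Among 19 integrins ITGA1 and ITGB3 rose by 0.66 and 0.61 and ITGB8 fell by 0.39, 15.8% of the list. ITGA1, the collagen-binding alpha-1 chain, went from 19.6, 1.54 and 2.68 to 26.9, 3.42 and 5.19 and passed in all 12 fits with a library left out. The ITGB8 call held in only 3 of 12 fits with a library left out (adjusted p up to 0.187) and was lost with no filter and with the 6 compared libraries alone. The ITGB3 value, which passed in 10 of 12 fits, is uncertain, since 51.6% of its exon bases are shared with another annotated gene on the same strand. Of 39 matrix and basement membrane genes 5 rose (DKK3, COL12A1, SPARC, TGFBI and TIMP2) and COL8A1 fell (15.4%), with a median of 0.07. Of these, SPARC and COL12A1 passed in 7 of 12 fits, COL8A1 in 8 of 12, TGFBI in 3 of 12 and TIMP2 in 2 of 12. TGFBI, a matrix adaptor protein, was the most abundant gene that rose, from 1101 for A704, 65.5 for HK2 and 288 for CAKI-1 to 1766, 81.9 and 312, and most of that gain in FPKM was in A704. The number of matrix genes that rose was 1 without either HK2 library, and 2 or 3 without the A704 PTPN14-1, PTPN14-2 or control library, the HK2 PTPN14-2 library, or the CAKI-1 PTPN14-2 or control library. It was 1 with no filter or with the 6 compared libraries alone, and 3 under quantile scaling. Of 18 collagen-modifying enzymes, the lysyl hydroxylase PLOD2 and the prolyl hydroxylase P3H2 rose, by 0.39 and 0.36, 11.1% of the list, and passed in 6 of 12 and 7 of 12 fits. Neither passed under quantile scaling (adjusted p = 0.0773 and 0.0975), with no filter or with the 6 compared libraries alone. CLDN1, a tight junction claudin, rose by 0.52, a call lost without the A704 or HK2 control, among 24 epithelial and mesenchymal genes of which 8.33% passed, with a median of 0.07. N-cadherin (CDH2) rose by 0.32, but the call held in only 5 of 12 fits (adjusted p up to 0.175) and was lost under quantile scaling and with no filter.

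Growth factor signalling genes moved in both directions. Of 29 MAPK feedback genes 4 rose and 1 fell (17.2%), and the median was -0.01. The number that rose was 2 with no filter, 1 with the 6 compared libraries alone, 2 without the A704 PTPN14-1 or control library and 1 without either HK2 library. DUSP5, a nuclear ERK phosphatase, went from 4.11, 83.0 and 23.0 to 6.79, 142 and 28.9 (change 0.57 ± 0.11, adjusted p = 0.0097). EPHA2, an ephrin receptor, went from 34.3, 36.9 and 25.0 to 47.0, 51.9 and 36.3 (change 0.48 ± 0.08, adjusted p = 0.0064). EPHA2 rose evenly across the lines, whereas the DUSP5 transcript lay mostly in HK2. DUSP5 passed in 10 of 12 fits and missed the threshold without the HK2 PTPN14-1 library or the HK2 control. EGR1, an immediate early transcription factor, fell from 2.55, 9.02 and 2.95 to 0.86, 4.69 and 1.83 (change -0.74 ± 0.13, adjusted p = 0.00606). FOSL1, an AP-1 subunit, and HBEGF, an EGF receptor ligand, rose by 0.43 and 0.50, and NRG1, a ligand of ERBB3 and ERBB4, by 0.38; of these, none held in every fit with a library left out. ETS1, an ETS family transcription factor, rose from 30.3, 41.9 and 27.4 to 46.2, 80.4 and 38.5 (change 0.67 ± 0.12, adjusted p = 0.0075) and missed the threshold without either HK2 library. Of 29 TGF-beta and activin genes only the type I receptor ACVR1 passed, at -0.28, a share of 3.45% beside 5.87% of all genes. ACVR1 held in 3 of 12 fits with a library left out (adjusted p up to 0.146).

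Of 28 cholesterol synthesis and uptake genes 8 rose and 0 fell in limma (28.6%, against 5.87% of all genes), with a median of 0.17. Of the 28, 15 had an unadjusted p under 0.05, as had 2801 of all 12276 genes. Also 15 were higher in all 3 lines, as were 2529 of all 12276 genes. MSMO1, a sterol C4-methyl oxidase, went from 34.9 for A704, 81.0 for HK2 and 53.3 for CAKI-1 to 54.6, 106 and 76.6 (change 0.51 ± 0.09, adjusted p = 0.0067). INSIG1, which retains the SREBP regulators in the endoplasmic reticulum, went from 34.5, 119.9 and 64.1 to 50.2, 174 and 92.7 (change 0.53 ± 0.10, adjusted p = 0.0118). On the log2 scale INSIG1 rose by near-equal amounts in the lines and MSMO1 most in A704. SQLE (squalene epoxidase), ACAT2, DHCR7 and SREBF2, the regulator of the pathway, rose by 0.44, 0.41, 0.35 and 0.35. For ACAT2, 45.8% of exon bases overlap an antisense gene. The number that rose was 2 without the A704 control, the HK2 PTPN14-1 or the CAKI-1 control library, 3 without the A704 PTPN14-1 or the HK2 control library and 4 without the HK2 PTPN14-2 library. It was 5 under quantile scaling, 2 with no filter, and 2 with the 6 compared libraries alone. It was 2 with the A704 line left out, 0 with HK2 and 1 with CAKI-1. MSMO1 alone of the 8 passed in all 12 such fits. Of 19 fatty acid synthesis genes 0 passed in limma, with a median of 0.12 and 8 at an unadjusted p under 0.05, beside the same 2801 of all genes.

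Replication genes ran the other way. Of 47 tested 4 fell and 0 rose in limma (8.51%), with a median of -0.14. Of the 47, 19 had an unadjusted p under 0.05, as had 2801 of all 12276 genes. In all 3 lines 32 were lower, as were 2574 of all 12276 genes. DUT, the dUTPase that keeps uracil out of DNA, went from 11.8 for A704, 13.2 for HK2 and 22.7 for CAKI-1 to 6.75, 6.73 and 12.2 (change -0.81 ± 0.07, adjusted p = 8.84e-05). E2F8, an atypical E2F repressor, went from 4.04, 4.97 and 2.36 to 1.29, 1.92 and 1.42 (change -0.88 ± 0.13, adjusted p = 0.00258). On the log2 scale DUT fell by similar amounts in the lines and E2F8 least in CAKI-1. GINS2, a subunit of the replicative helicase, fell by 0.41 ± 0.07 (adjusted p = 0.00557). DUT, E2F8 and GINS2 passed in all 12 fits with a library left out, and the number that fell was 2 with the 6 compared libraries alone. MCM6, a helicase subunit, stood at -0.26 (adjusted p = 0.0699) and CDC45 at -0.39 (adjusted p = 0.0552).

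Of 35 mitosis genes 0 passed in limma, with 9 at an unadjusted p under 0.05, beside 2801 of all 12276 genes. The median of the mitosis list was -0.11, the A704 median being the lowest at -0.22. Among 22 G1 cyclins and inhibitors, CDKN1A (p21), a CDK inhibitor, rose by 0.40, and E2F4, RBL1 and CDKN2C fell by 0.39, 0.39 and 0.38, 18.2% of the list. CDKN1A passed in 9 of 12, E2F4 in 8 of 12, RBL1 in 6 of 12 and CDKN2C in 5 of 12 fits with a library left out, and none of the 3 that fell passed with no filter or with the 6 compared libraries alone. CDKN1A is also among the 7 of 25 p53 targets that rose, with PLK2, TP53INP1, BTG2, TIGAR, AEN and CCNG1. The p53 list had a median of 0.08 and 0 members that fell, and the 7 are 28.0% of it, against 5.87% of all genes. The TIGAR value is uncertain, since 45.3% of its exon bases overlap another annotated gene on the same strand. PLK2, a polo-like kinase and one of the 5 most abundant genes that rose, went from 170.2 for A704, 132 for HK2 and 355 for CAKI-1 to 254, 184 and 517 (change 0.53 ± 0.08, adjusted p = 0.00384). CDKN1A went from 92.3, 22.3 and 31.9 to 135, 28.6 and 40.3, highest in A704 with either siRNA. PLK2 alone of the 7 passed in all 12 fits with a library left out, and the number that rose was 1 with the 6 compared libraries alone, 1 without the CAKI-1 control, 2 without the HK2 PTPN14-1 library, 3 without the A704 or HK2 control and 4 without the CAKI-1 PTPN14-1 library. It was 2 with the A704 line left out and 0 with HK2 or CAKI-1 left out. Of 34 nucleotide synthesis genes 1 rose (GART, a purine synthesis enzyme, 0.33) and 3 fell (DUT again, the nucleoside transporter SLC29A1 and the mitochondrial thymidine kinase TK2), 11.8% of the list. GART and SLC29A1 passed in 7 of 12 fits and TK2 in 8 of 12, and all 3 were lost with the 6 compared libraries alone.

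Genes of the endoplasmic reticulum and secretory route were next. OSTC was the only one of 31 N-glycosylation genes to pass, a share of 3.23% beside 5.87% of all genes; the list's median was 0.04, and the catalytic subunits STT3A and STT3B changed by 0.16 and 0.15 (adjusted p = 0.235 and 0.252). Of 31 unfolded protein and stress genes 0 rose and 3 fell (9.68%), while the median was 0.13. CALR (calreticulin), a calcium-binding chaperone, went from 554 for A704, 727 for HK2 and 589 for CAKI-1 to 490.5, 409 and 334 (change -0.61 ± 0.13, adjusted p = 0.0149). CANX (calnexin), its membrane-bound relative, changed by 0.13 and the chaperone HSP90B1 by 0.30 (adjusted p = 0.316 and 0.12). DDIT3 (CHOP), a stress transcription factor, fell by 0.56, and DDIT4, an inhibitor of mTORC1, by 0.47; DDIT4 shares 48.5% of its exon bases with an antisense gene. CALR and DDIT3 fell little in A704 (-0.18 and -0.14), and all 3 were lost without the HK2 or CAKI-1 PTPN14-1 library or the CAKI-1 control. Without the HK2 control 1 was called lower, and 0 with no filter or with the 6 compared libraries alone. SEC23B, a COPII coat subunit, went from 41.2, 36.7 and 36.4 to 30.0, 18.0 and 15.9 (change -0.86 ± 0.12, adjusted p = 0.00199), and AP3M1, an AP-3 adaptor subunit, rose by 0.38 and passed in 7 of 12 fits.

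Of 27 sulfatase and lysosome genes 2 rose and 1, SUMF1, fell, 11.1% of the list. GLA, the lysosomal alpha-galactosidase, went from 32.7, 41.6 and 84.5 to 55.2, 57.5 and 103 (change 0.49 ± 0.09, adjusted p = 0.0075). SLC2A3, a glucose transporter, rose by 0.45 and VEGFA, the angiogenic factor, fell by 0.53, the only ones of 34 glucose and hypoxia genes to pass. Their share of 5.88% lies at the background of 5.87%, and SLC2A3 passed in 10 of 12 and VEGFA in 7 of 12 fits. VEGFA stood at 250.3, 90.9 and 13.6 in the controls and 144, 73.1 and 9.41 with PTPN14-1, with the largest difference in A704 (-0.79).

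Of 53 cytosolic ribosomal proteins 0 passed in limma (3 at an unadjusted p under 0.05, median 0.09), and of 50 nuclear-encoded respiratory chain genes 0 passed (1 at an unadjusted p under 0.05, median -0.02). RPL26L1, a ribosomal protein paralog outside the list, fell by 0.74, from -1.32 in HK2 to -0.12 in A704, passed in 8 of 12 fits and can share reads with RPL26. Of 32 mitochondrial carriers SLC25A15 and SLC25A10 fell, a share of 6.25% beside 5.87% of all genes. The SLC25A10 value is uncertain, since 60.4% of its exon bases overlap another annotated gene on the same strand, and it passed in 5 of 12 fits with a library left out (adjusted p up to 0.166). Of 12 RNA interference genes, TNRC6A, a silencing scaffold, and AGO4, an Argonaute, rose by 0.44 and 0.30, and DROSHA, the nuclear miRNA-processing enzyme, fell by 0.53 (25.0% of a short list); none of the 3 held in every fit with a library left out. None of 15 kidney tubule genes passed in limma (1 at an unadjusted p under 0.05), nor did the 2 immune, 4 fibroblast and 3 podocyte markers that could be tested (0, 0 and 2 at an unadjusted p under 0.05). RDM1, ALDH6A1 and GABPB2 fell across a level of 1, lying above FPKM 1 in all controls and under 1 in all PTPN14-1 libraries, and passed in 9 of 12, 8 of 12 and 7 of 12 fits. RDM1, named for a RAD52 motif, stood at 1.40, 1.40 and 1.04 and then 0.41, 0.45 and 0.71.

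**Figure D3:**
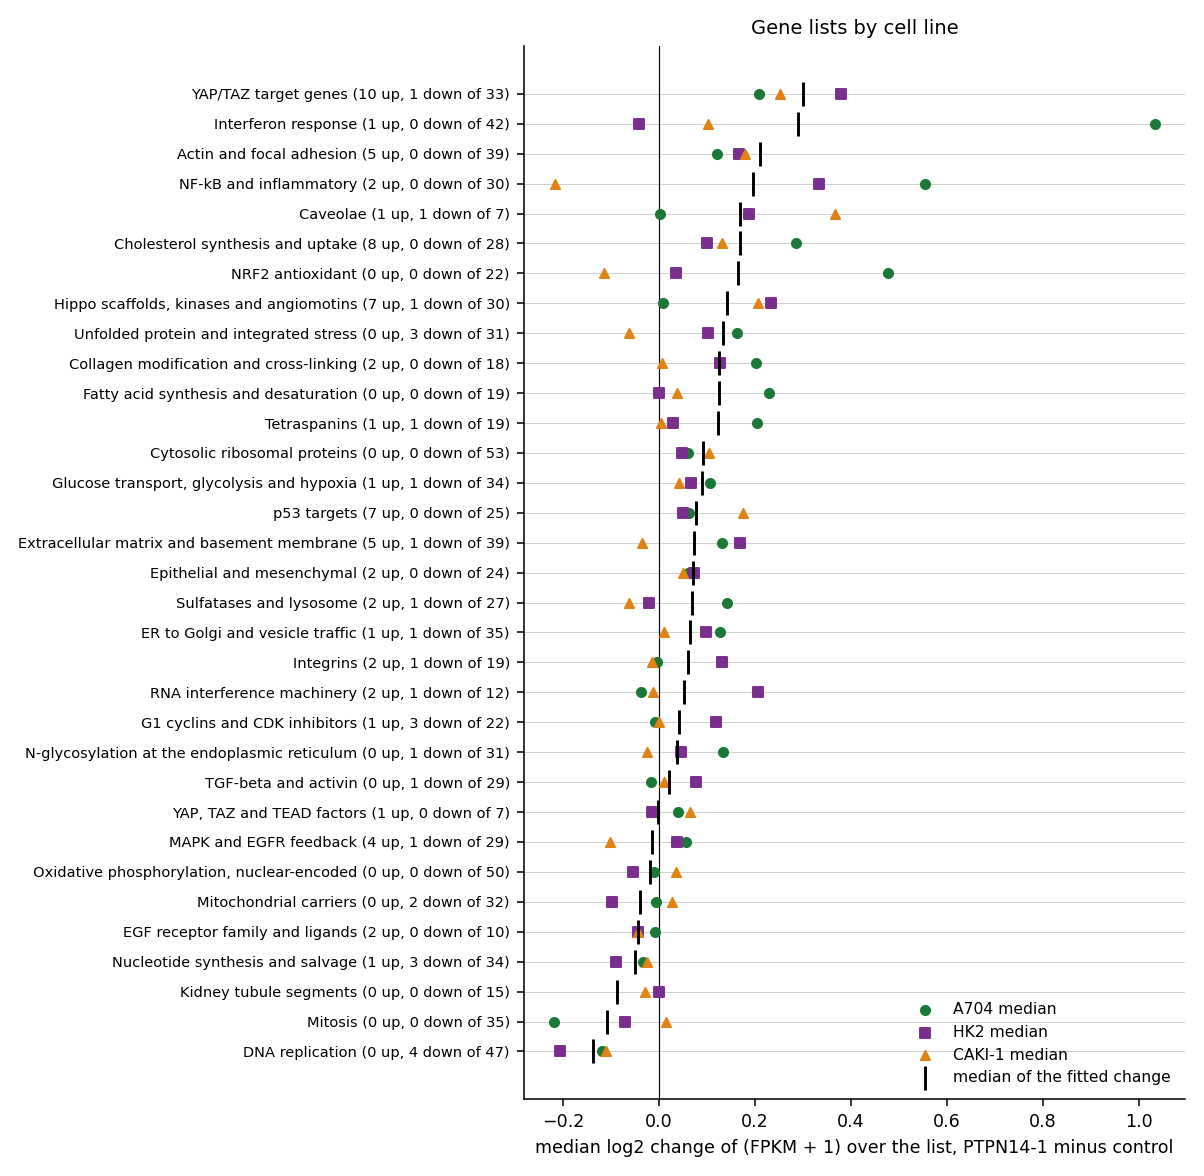
Median change over the tested members of each gene list (log2 of FPKM + 1, PTPN14-1 minus control) within A704, HK2 and CAKI-1 (coloured points, 1 library pair each) and in the limma fit (black bar), with the numbers that rose (up) and fell (down). The YAP/TAZ targets lie above 0 in all 3 lines and the DNA replication genes below 0 in all 3, whereas the interferon, NF-kB and NRF2 lists spread widely, with A704 highest.

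The lines did not respond alike in every group of genes. Over all genes tested, 71 were more than 2-fold higher in the A704 pair, against 12 in HK2 and 11 in CAKI-1, while 19, 42 and 31 were more than 2-fold lower. Interferon response genes had the widest spread of list medians between lines. Their median was 1.03 for A704, -0.04 for HK2 and 0.10 for CAKI-1. Of 42 tested, 1 passed (IFITM2, 0.52), a share of 2.38% beside 5.87% of all genes. IFITM2 missed the threshold without the A704 control. The fitted list median of 0.29 was 0.08 without the A704 PTPN14-1 library, 0.17 without the A704 control, 0.53 without the HK2 PTPN14-1 library and 0.01 without the A704 line.

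ISG15, a ubiquitin-like interferon-induced protein, stood at FPKM 91.0 in the A704 control, 80.2 with PTPN14-2, 183 with the LATS siRNA and 331 with PTPN14-1. IFIT1, which binds foreign RNA, stood at 69.3, 56.8, 132 and 190.3 in the same order. The summed FPKM of 44 interferon genes was 3061 in the A704 control, 3088 with PTPN14-2, 5094 with the LATS siRNA and 6209 with PTPN14-1. In HK2 that sum was 372 in the control and 348 with PTPN14-1, and in CAKI-1 it was 737 and 767. The A704 control and PTPN14-2 libraries lay near each other, below the LATS and PTPN14-1 libraries. The A704 control is also the only library with an RNA integrity number of 9.6 rather than 10, and the part of this in the A704 differences was not tested. With 1 library per siRNA in a line, none of these line differences has a test.

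NF-kB and inflammatory genes split the lines: list medians were 0.55 for A704, 0.33 for HK2 and -0.22 for CAKI-1. NFKB1, a subunit of the factor, and CSF1, a macrophage growth factor, were the 2 of 30 that passed, at 0.32 and 0.62, a share of 6.67% beside 5.87% of all genes. NFKB1 held in 4 of 12 and CSF1 in 2 of 12 fits with a library left out (adjusted p up to 0.175 and 0.212), and neither passed with no filter or with the 6 compared libraries alone. IL6, an inflammatory cytokine, stood at 4.29 for A704, 38.2 for HK2 and 43.7 for CAKI-1 with control siRNA and 15.4, 60.4 and 37.0 with PTPN14-1 (adjusted p = 0.164). On the log2 scale the gain of IL6 was largest in A704, and CAKI-1 went slightly down. Of 22 NRF2 antioxidant genes 0 passed in limma, with 6 at an unadjusted p under 0.05, beside 2801 of all 12276 genes. The NRF2 list medians were 0.48 for A704, 0.03 for HK2 and -0.12 for CAKI-1.

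**Figure D4:**
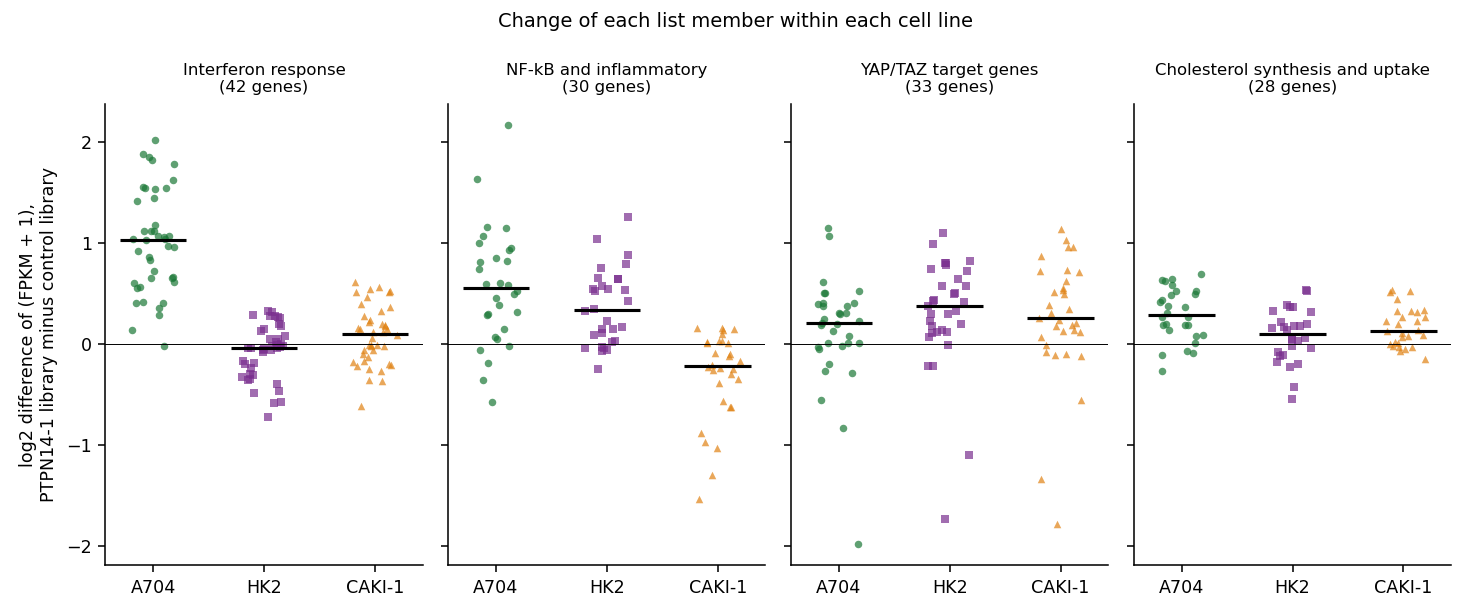
Change of each tested member of 4 gene lists within each cell line (log2 of FPKM + 1, PTPN14-1 library minus control library), 1 point per gene, with the median as a black bar. Interferon genes sit high in A704 and around 0 in HK2 and CAKI-1, NF-kB genes lie mostly below 0 in CAKI-1, and the YAP/TAZ target and cholesterol medians lie above 0 in all 3 lines.

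The second PTPN14 siRNA and the LATS siRNA served as comparators in the same lines. Each is compared with the same 3 control libraries, so their changes are given side by side, and the difference between siRNAs was tested directly. PTPN14 stood at 7.14, 19.5 and 5.78 with PTPN14-2, a change of -1.40 beside -1.84. The direct difference was -0.44 (adjusted p = 0.0213). With the LATS siRNA, LATS1 changed by -1.36 and LATS2 by 0.12 against control (limma adjusted p = 0.000179 and 0.618). Over all genes tested, 678 (5.52%) were higher and 759 (6.18%) lower with PTPN14-1 than with PTPN14-2, and 493 (4.02%) were higher and 599 (4.88%) lower than with the LATS siRNA. Among the 720 genes called against control, 150 higher genes were also above PTPN14-2 and 317 lower genes also below it. Against the LATS siRNA these numbers were 135 and 296, and 326 genes differed from both. These tests share the PTPN14-1 libraries with the contrast that chose the genes, so nothing is read from the shares.

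The 14 largest falls after PTPN14 had changes between -0.31 (OSTC) and 0.28 (RMND5A) with PTPN14-2, and between -0.41 (SLC25A15) and 0.14 (LIPA) with the LATS siRNA. SUMF1 changed by 0.06 with PTPN14-2 and 0.01 with the LATS siRNA, with a direct difference of PTPN14-1 from PTPN14-2 of -1.53 (adjusted p = 7.66e-05). RMND5A changed by 0.28 and -0.07, with a direct difference from PTPN14-2 of -1.42 (adjusted p = 1.07e-05). OSTC had direct differences of -1.03 and -1.26 (adjusted p = 1.54e-05 and 2.85e-06), and PABPC1 of -1.39 and -1.37 (adjusted p = 0.00186 and 0.00346).

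Among the YAP/TAZ targets, NUAK2 changed by 0.91 with PTPN14-1, 0.12 with PTPN14-2 and 0.30 with the LATS siRNA, with direct differences of 0.79 and 0.61 (adjusted p = 0.000729 and 0.00589). CYR61 changed by 0.17 with PTPN14-2 and 0.06 with the LATS siRNA, and CTGF by 0.03 and -0.02. With PTPN14-1 these 2 genes were higher than with PTPN14-2 by 0.51 and 0.42 (adjusted p = 0.0152 and 0.02). CRIM1 differed by 0.22 and MYOF by 0.12 (adjusted p = 0.168 and 0.286), which did not pass. TSPAN2 changed by 1.27, 0.98 and 0.94 with the 3 siRNAs, and its direct difference from PTPN14-2, 0.29 ± 0.15, did not pass (adjusted p = 0.236). INSIG1, PLOD2 and WWC1 had direct differences from PTPN14-2 of 0.03 ± 0.10, -0.07 ± 0.10 and -0.01 ± 0.09, none of which passed (adjusted p = 0.891, 0.698 and 0.948).

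Of all genes tested, ETS1 was the furthest above its PTPN14-2 level: it changed by 0.67 with PTPN14-1 and -1.10 with PTPN14-2, a direct difference of 1.76 (adjusted p = 1.25e-05). SLC2A3 changed by 0.45 and -0.72 and AP3M1 by 0.38 and -0.71, with direct differences of 1.17 and 1.09 (adjusted p = 1.49e-05 and 1.54e-05). For these 3 genes the larger part of the difference lay in the fall with PTPN14-2. AP3M1 overlaps VCL on the opposite strand over 21.1% of its exon bases. COL8A1 and ITGB8 fell with PTPN14-1 (-0.41 and -0.39) beside changes of 0.48 and 0.57 with PTPN14-2, direct differences of -0.88 and -0.96 (adjusted p = 0.000143 and 0.000143).

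**Figure D5:**
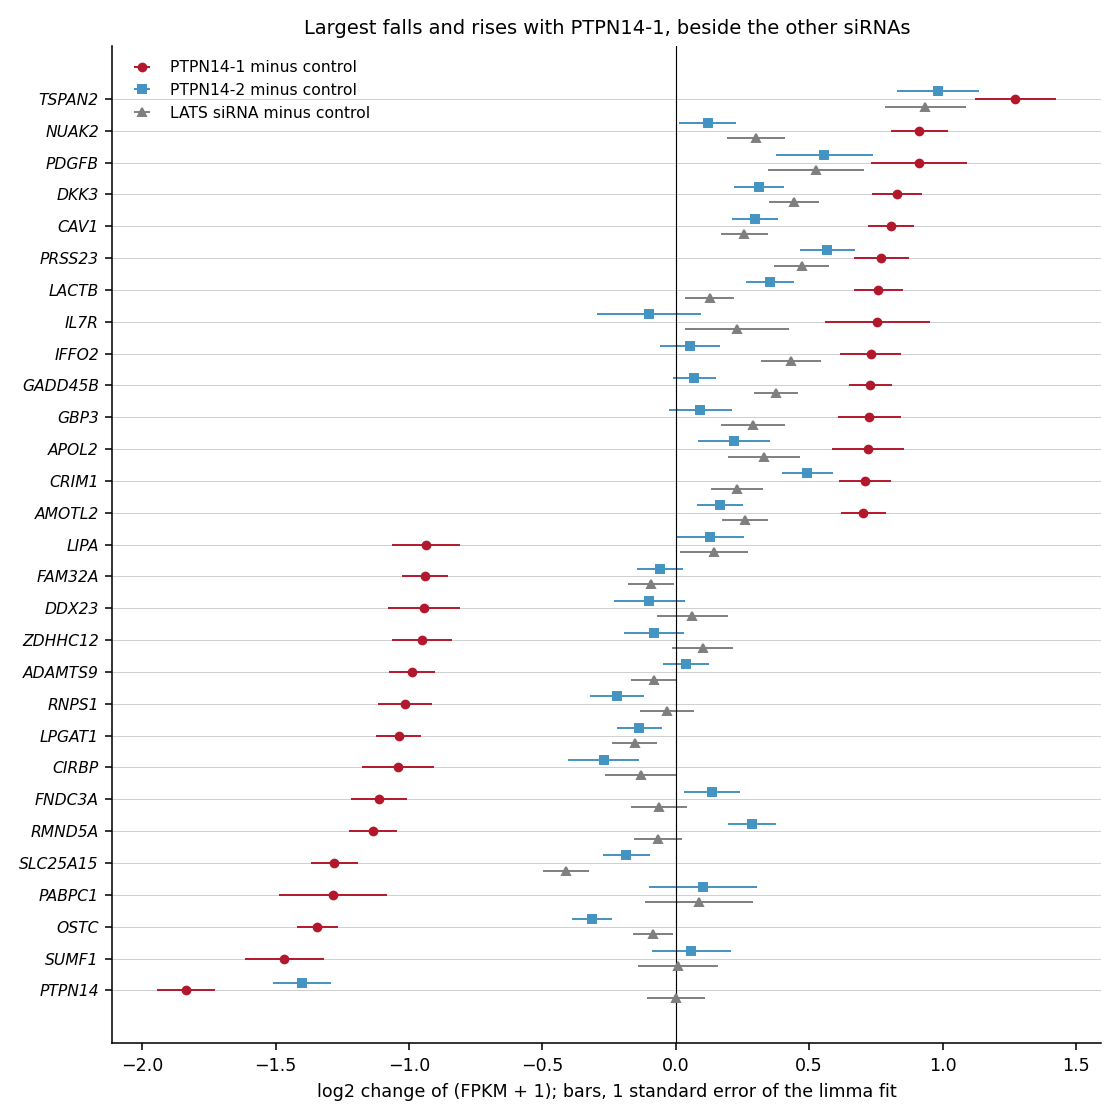
Change against control (log2 of FPKM + 1, limma fit, bars of 1 standard error) for 14 of the 15 largest rises and the 15 largest falls with PTPN14-1 (red circles), with the values of the same genes for PTPN14-2 (blue squares) and the LATS siRNA (grey triangles), all against the same 3 controls. Among the falls, the comparators lie near 0 for most genes except PTPN14 with PTPN14-2, whereas many rises show smaller changes of the same sign; the genes were chosen for their change with PTPN14-1.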

How the data were processed

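PolyA RNA-seq of 12 libraries (4 siRNAs in A704, HK2 and CAKI-1) was analysed from 1 table of FPKM values that the authors deposited, rounded to 2 decimals. The submitters' processing notes name STAR 2.4.0g1 and the genome build GRCh38.p1. How fragments were counted and scaled, with which annotation and strand setting, is not given in the sources used here, although the labels' kit marks strand. Depth was estimated from the steps of low values in single-exon genes, 17.0 M to 23.3 M reads, and is an estimate, since FPKM does not carry whole reads for most genes. The table has 20979 entries and 19156 symbols, of which 695 occur more than once; 29 symbols look like dates after spreadsheet conversion, 19 of them tested and 3 past the threshold, and they are not named here.

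Values were taken as log2(FPKM + 1), which understates changes of low genes, for the 12276 entries above FPKM 1 in at least 3 libraries. They were fitted with limma 3.58.1 (statmod 1.5.0, R 4.3.3; mean-variance trend and robust moderation) on all 12 libraries, with 4 siRNA levels and cell line as the block (6 residual degrees of freedom). Tests were two-sided, with Benjamini-Hochberg adjustment over all 12276 entries at 0.05, and the fit was tested on simulated data. The pairing comes from the shared cell line: deviations of the PTPN14-1 and control library of a line from their group means correlated at 0.963 (A704), 0.972 (HK2) and 0.967 (CAKI-1).

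Named genes were PTPN14, YAP1, WWTR1, LATS1 and LATS2; the 15 largest rises and falls past the threshold with mean FPKM above 1; the 5 most abundant genes in each direction; up to 4 called members per list with the smallest p; genes crossing FPKM 1; the 5 with the widest range between lines; and the 5 with the smallest p against PTPN14-2. Other called list members, and AREG, MCM6, CDC45, CAV2, STT3A, STT3B, CANX, HSP90B1, IL6, ISG15 and IFIT1, were named after their values were seen. Some genes are not reported here, although list counts include them. Members and lists were chosen with earlier results of these data known. Lists were described by counts and medians, without a set test. Alternatives were pseudocounts of 0.1 and 0.5, no filter, a filter at FPKM 5, quantile and median-ratio scaling, no block, no trend or robust moderation, only the libraries compared, and each library or line left out. Promoter letters come from RefSeq (GRCh38.p14), matched by symbol, and exon overlaps from the reference annotation.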

Additional observations from a re-analysis of the deposited data

Results flagged for a closer look

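The NF-kB and inflammatory list and the NRF2 antioxidant list had medians beyond 0.1 in opposite directions in different lines. For the NF-kB list the median change with PTPN14-1 (log2 of FPKM + 1) was 0.55 for A704, 0.33 for HK2 and -0.22 for CAKI-1. For the NRF2 list it was 0.48 for A704, 0.034 for HK2 and -0.12 for CAKI-1. Each value rests on 1 library pair, and the difference between lines was not tested. The summed FPKM of the NF-kB list went from 810 to 1377 in A704, from 633 to 929 in HK2 and from 892 to 616 in CAKI-1. In A704 the interferon list was also higher with PTPN14-1, from 3061 to 6209 in summed FPKM, and its part in the NF-kB and NRF2 values was not tested.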

How the results depend on the processing

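The number of genes past the threshold against control, 720 (294 higher, 426 lower), stayed within 1.5 times under pseudocounts of 0.1 and 0.5, a filter at FPKM 5, quantile or median-ratio scaling, and moderation without trend or robust fitting (654 to 778). Without a filter it was 355 (131 higher, 224 lower; 345 shared with the 720), and with only the compared libraries 103 (32 higher, 71 lower; 101 shared). Without the replicate block for cell line it was 0 (0 higher, 0 lower) in limma, with 66 genes at an unadjusted p under 0.05 against 2801 with the block; the counts against PTPN14-2 and against the LATS siRNA were then 0 too. With 1 library left out, the ranges were 200 to 830 for all genes, 67 to 346 for higher and 133 to 484 for lower genes. Left out, A704, HK2 and CAKI-1 gave 299, 40 and 145 genes (98, 10 and 51 higher; 201, 30 and 94 lower), of which 246, 38 and 122 were among the 720.

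Against PTPN14-2, 1437 genes passed, with 715 from the compared libraries alone, 742 to 1638 with 1 library left out, and 566, 319 and 503 without A704, HK2 and CAKI-1. The lowest counts came without PTPN14-2 in A704 (839), HK2 (833) or CAKI-1 (742), and without PTPN14-1 in HK2 (876). Against the LATS siRNA 1092 passed, with 603 without a filter, 520 from the compared libraries alone, 404 to 1467 with 1 library left out, and 614, 106 and 69 without A704, HK2 and CAKI-1. The lowest of these came without LATS in A704 (637) or CAKI-1 (404), and without PTPN14-1 in HK2 (406) or CAKI-1 (435). The cause of these movements was not tested, beyond the fewer samples in such fits.

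YAP1, which did not pass, turned from 0.04 to -0.02 without the CAKI-1 control (replicate 3) and to -0.032 without CAKI-1, and was 0.090 without A704; no other named gene changed direction in the settings run. Without a filter 51 named genes no longer passed, and with quantile scaling 21. The all-gene median was 0.01 with quantile and -0.01 with median-ratio scaling. With 1 library per siRNA and line, nothing within a line can be tested, and depth cannot settle changes of genes near FPKM 1.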
